A study of Mus musculus with 5 samples.

Results

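Retinal ganglion cells are the output neurons of the eye: they collect signals from bipolar and amacrine cells in the inner retina, and their long axons form the optic nerve. The 10 genes described here, Rbpms, Pou4f1, Pou4f2, Pou4f3, Isl2, Sncg, Thy1, Nefl, Nefm and Nefh, are in common use to recognise these cells in the rodent retina. They were selected by their symbols from the 33635 gene rows of a count table, and each had 1 row. Rbpms encodes an RNA-binding protein of the ganglion cell body that is used to count these cells. The POU domain factors Pou4f1, Pou4f2 and Pou4f3 (also called Brn3a, Brn3b and Brn3c) and the LIM homeodomain factor Isl2 act in the specification, survival and axon growth of ganglion cell types. Sncg (gamma-synuclein) and Thy1 (a cell surface glycoprotein) are abundant in ganglion cells, and Nefl, Nefm and Nefh encode the light, medium and heavy neurofilament chains that fill large axons.

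Retinas came from 3 wild-type male C57BL/6J mice aged 42 days. From day 28, and so for 2 weeks, the right eye looked through a diffuser goggle fixed to the head, which induced form-deprivation myopia (FDM), and the left eye saw without a goggle and gave the control. The refractive error at day 42 was 0.976 and 0.2745 dioptres in the 2 FDM eyes and 2.4455, 3.1505 and 2.465 dioptres in the 3 control eyes. Polyadenylated RNA of the retina was sequenced, and 5 libraries were analysed, FDM 1 and FDM 3 with Control 1, Control 2 and Control 3. The numbers are those of the columns of the count table: the column of the second FDM library has the number 3, while its sample title has the number 2. FDM 1 and Control 1 were taken as the eyes of the first mouse and FDM 3 and Control 3 as those of the third, and Control 2 has no partner, since the study removed 1 FDM library for its read duplication. The control eyes belong to goggled animals, and no eye of an animal without a goggle was analysed here. A form-deprived eye therefore stands against the open eye of the same or another goggled mouse.

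The libraries held 40599047 to 56534931 estimated counts, and their TMM scaling factors lay between 0.984 and 1.01. Markers of other tissues set some of them apart. The summed level of 14 lens genes was 2523 CPM (each count divided by the scaled total of its library, times 1000000) in FDM 3 and 27.4 to 51.5 CPM in the other 4 libraries. Pigment epithelium genes summed to 596 CPM in Control 2 and 670 CPM in Control 3, against 436 to 455 CPM in FDM 1, FDM 3 and Control 1. Skeletal muscle genes summed to 83.4 CPM in Control 3 and to at most 10.7 CPM elsewhere. The part of these tissues in the values below was not tested. Without any 1 of the 5 libraries, 0 of the ganglion cell identity genes passed the test.

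Sequence bears on how well the members can be told apart, so the longest stretch that Pou4f1 and Pou4f2 share is shown. The paired reads were 50 bases long, and these genes have an identical run of 71 bases in their coding sequence, at chr14:104466054-104466124 on the minus strand for Pou4f1 and at chr8:78435062-78435132 on the minus strand for Pou4f2 (GRCm38). A read inside this run fits both genes, and its assignment rests on the rest of the pair or on the estimate of the counting program.
Pou4f1 and Pou4f2 shared run: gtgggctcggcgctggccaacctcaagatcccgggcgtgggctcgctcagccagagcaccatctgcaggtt
The run covers bases 1137 to 1207 of the Pou4f1 transcript, whose coding part spans bases 267 to 1529, and bases 1082 to 1152 of the Pou4f2 transcript, whose coding part spans bases 242 to 1474. Pou4f3 shares at most 41 bases in a row with Pou4f1 and 35 with Pou4f2, both shorter than a read. Identical runs were no longer than 23 bases between Nefm and Nefh and between Isl2 and its relative Isl1, and 20 bases between Rbpms and Rbpms2. For the neurofilaments the limit is another one: exons of Nefl on the plus strand and Nefm on the minus strand overlap by 1108 bases, and the library kit keeps no strand, so that reads from this overlap cannot be given to either gene by their direction.

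Promoters were read from a RefSeq table (GRCm38.p6) that held 4 of the 10 members, Pou4f1, Pou4f2, Isl2 and Sncg, and the 250 bases before each start were searched on both strands. Rbpms, Pou4f3, Thy1, Nefl, Nefm and Nefh had no entry. The pair below is shown because it holds the opposite ends of what was found, a window with the homeodomain core and a window with the most GC boxes of the 4. Sncg (chr14:34374670-34374919, minus strand) has the core TAAT, to which POU and LIM homeodomain factors can bind, at 219 and 210 bases before the start, and the GC box GGGCGG at 78 bases before it. Pou4f2 (chr8:78436648-78436897, minus strand) has 5 GC boxes, of which a pair overlaps, and no TAAT. Capitals mark the matches, written as ATTA or CCGCCC where they lie on the other strand.
Sncg promoter: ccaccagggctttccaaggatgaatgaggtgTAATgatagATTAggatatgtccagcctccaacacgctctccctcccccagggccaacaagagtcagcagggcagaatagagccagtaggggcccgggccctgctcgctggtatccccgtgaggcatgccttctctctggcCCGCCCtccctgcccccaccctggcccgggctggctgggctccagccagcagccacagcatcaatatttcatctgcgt
Pou4f2 promoter: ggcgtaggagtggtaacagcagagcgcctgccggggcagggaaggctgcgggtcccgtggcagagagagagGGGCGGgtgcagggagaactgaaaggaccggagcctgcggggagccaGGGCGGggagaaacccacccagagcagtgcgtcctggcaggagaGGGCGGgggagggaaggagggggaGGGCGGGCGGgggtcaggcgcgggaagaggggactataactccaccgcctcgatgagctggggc
The other two windows hold GC boxes but no TAAT, 2 in Pou4f1 and 1 in Isl2, and the letters TATAAA of the TATA box are in none of the 4. Of 32851 mouse promoters of the same length, 54.9% held TAAT, 32.7% GGGCGG and 12.4% TATAAA, so that a match of either of the first kinds is common. The 4 members' windows had a GC content of 61.6% (Sncg), 66.8% (Isl2), 70.8% (Pou4f2) and 78% (Pou4f1), against a median of 52.4% over all promoters. These matches describe letters and not bound sites.

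All 10 members were well above detection in every library. The fewest counts were 169 for Pou4f3 in Control 1 and the most were 30262 for Nefl in Control 2, where 3 counts equal 0.0526 to 0.0751 CPM depending on the library. To compare levels between genes, CPM were divided by the length of all annotated exons of a gene in kilobases. This length joins the exons of all transcripts, 6.56 kilobases for Rbpms and 5.78 for Nefm. Which transcripts the retina uses was not tested, so the order and the ratios per length depend on this choice. On this scale the mean over the 5 libraries was highest for Nefl, at 146 CPM per kilobase, followed by Sncg at 84.2, Thy1 at 75.1, Nefm at 27.6 and Nefh at 26.4 CPM per kilobase. Below these axonal and surface genes came Pou4f1 at 6.54, Rbpms at 5.38, Pou4f2 at 3.24, Pou4f3 at 2.43 and Isl2 at 2.10 CPM per kilobase. Some neighbours in this order overlapped across libraries: Sncg (71.4 to 103 CPM per kilobase) with Thy1 (68.4 to 84.7), Nefm (26.3 to 30.0) with Nefh (24.1 to 29.9), Pou4f1 (5.84 to 6.87) with Rbpms (5.10 to 5.86), and Pou4f3 (1.76 to 2.92) with Isl2 (1.81 to 2.34). Pou4f2, at 2.95 to 3.77 CPM per kilobase, stayed apart from both its neighbours. None of the 10 was at 0 in any retina, which whole-retina RNA also shows for markers of other cell types.

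**Figure D1:**
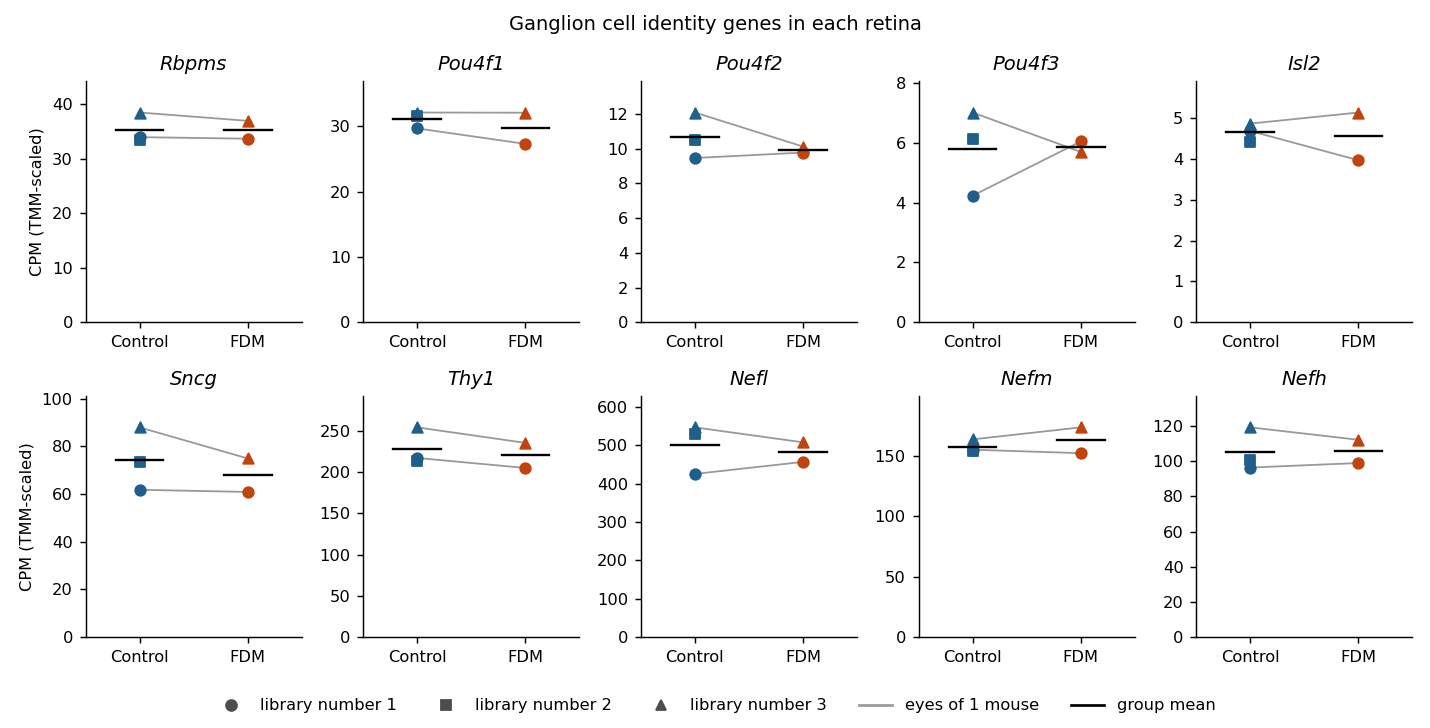
Level of each ganglion cell identity gene in each retina, in CPM after TMM scaling (y axis, from 0), for control and FDM eyes. Points are libraries, grey lines join the eyes taken as 1 mouse by column number, and black bars are group means. In the panels of Rbpms, Pou4f2, Pou4f3, Nefl and Nefh both FDM points lie inside the control range. In no panel do both lie above or below all 3 control points.

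Form deprivation was compared with the open eye to ask whether the RNA of ganglion cells differs after 2 weeks of a degraded image. None of the 10 genes differed between FDM and control retinas in edgeR's quasi-likelihood test, and all 10 had fitted log2 differences between -0.13 and 0.05. At the study's threshold, an unadjusted p of 0.05, 281 genes of 17432 passed (1.61%), and 0 (0%) did so after Benjamini-Hochberg adjustment. DESeq2 gave 172 genes at the unadjusted threshold, 0.987% of those it tested, and again 0 members. The smallest unadjusted p of a member was 0.442 in edgeR and 0.455 in DESeq2. In bulk RNA, fewer ganglion cells and less RNA per ganglion cell cannot be told apart, and neither can a constant level from changes that offset each other. The p-values rest on 2 against 3 retinas.

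Rbpms, the general ganglion cell marker, was at 33.6 and 36.9 CPM in FDM 1 and FDM 3 and at 33.9, 33.4 and 38.4 CPM in the 3 control libraries. The groups overlapped fully, with means of 35.3 ± 2.31 CPM (SD, n = 2) and 35.3 ± 2.76 CPM (SD, n = 3). The fitted log2 difference was 0.00092, with a 95% interval of -0.22 to 0.23, and edgeR's unadjusted p was 0.993.

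The POU factors are expressed in overlapping sets of ganglion cell types. Pou4f1, which marks most of them, was at 27.3 and 32.1 CPM in FDM 1 and FDM 3 and at 29.7, 31.5 and 32.1 CPM in the controls. Only the FDM eye of the first mouse lay below the control range, and the log2 difference was -0.07 with an interval of -0.29 to 0.16. Pou4f2, needed early for ganglion cell differentiation and axon growth, was at 9.78 and 10.1 CPM in FDM eyes and at 9.46, 10.5 and 12.1 CPM in control eyes. Both FDM values fell between the lowest and the middle control, and the log2 difference was -0.10 (-0.41 to 0.20). Pou4f3, carried by a small set of ganglion cell types and by inner ear hair cells, was at 6.04 and 5.70 CPM in FDM eyes and at 4.23, 6.14 and 7.01 CPM in control eyes. Its control libraries spread the most of the 3 POU factors, around a mean of 5.79 ± 1.42 CPM (SD, n = 3), and its interval was the widest of the members, from -0.47 to 0.51 around 0.02. Isl2, expressed in a set of ganglion cells whose axons cross the midline, was at 3.97 and 5.13 CPM in FDM eyes and 4.68, 4.40 and 4.86 CPM in control eyes. The FDM eyes took both the lowest and the highest value, and the log2 difference was -0.03 (-0.39 to 0.33).

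Sncg encodes gamma-synuclein and Thy1 a surface protein, and their RNA falls in rodent retinas after optic nerve damage. Sncg was at 60.9 and 74.9 CPM in FDM 1 and FDM 3 and at 61.8, 73.3 and 87.9 CPM in controls. The groups overlapped, although Sncg had the largest fitted difference of the 10 members, -0.13 on the log2 scale (SE 0.161, interval -0.51 to 0.25, edgeR's unadjusted p = 0.442). Thy1 was at 205 and 235 CPM in FDM eyes and at 217, 214 and 254 CPM in control eyes. One FDM eye lay below and the other inside the control range, and the log2 difference was -0.05 (SE 0.111, interval -0.31 to 0.21).

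The neurofilament chains assemble together in the axon, with Nefl as the core on which Nefm and Nefh build. Nefl was at 457 and 508 CPM in FDM eyes and at 425, 531 and 547 CPM in control eyes. Both FDM values lay inside the control range, and the log2 difference was -0.06 (interval -0.35 to 0.24). Nefm was at 152 and 174 CPM in FDM eyes and at 155, 154 and 164 CPM in control eyes. Here the FDM eyes enclosed the controls, and Nefm had the highest fitted value among the members, 0.05 (-0.16 to 0.26). Nefh was at 99.0 and 112 CPM in FDM eyes and at 96.4, 101 and 119 CPM in control eyes. Its FDM values fell inside the control range around the same mean, 106 ± 9.34 CPM (SD, n = 2) against 105 ± 12.1 CPM (SD, n = 3), with a log2 difference of 0.0015 (-0.27 to 0.28).

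Ratios within a library, formed per length, showed how far the members moved together. Nefm over Nefl was 0.195 and 0.200 in FDM 1 and FDM 3 and 0.213, 0.170 and 0.175 in the 3 controls, and Nefh over Nefl was 0.183 and 0.187 against 0.192, 0.161 and 0.185. In both ratios Control 1 was the highest and Control 2 the lowest library, and the FDM eyes lay between them. Pou4f2 over Pou4f1 was 0.522 and 0.460 in FDM eyes and 0.465, 0.486 and 0.549 in control eyes, while Pou4f3 over Pou4f1 ranged from 0.278 in Control 1 to 0.431 in FDM 1. Thy1 over Rbpms was the steadiest of the ratios formed, between 13.3 and 14.5 in all 5 retinas, and Sncg over Rbpms ran from 13.9 to 17.6. A ratio of this kind shows unequal change between a pair of genes, and not which of them moved.

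The intervals give the range of differences that the fit without a block allows for each member. That fit takes the eyes of 1 mouse as independent. Across the 10 members the 95% intervals reached from 0.702-fold to 1.42-fold of the control level, and all 10 lay inside a 1.5-fold change in either direction. The fitted value was below 0 for 6 members and above 0 for 4, with a median of -0.04 against -0.01 over all genes tested, and the median size of the difference was 0.0503 for the members and 0.0664 for all genes. In 0 of the 10 genes did both FDM retinas lie below all 3 controls, an arrangement found in 6.67% of all genes tested, and in 0 did both lie above them, found in 3.97%.

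**Figure D2:**
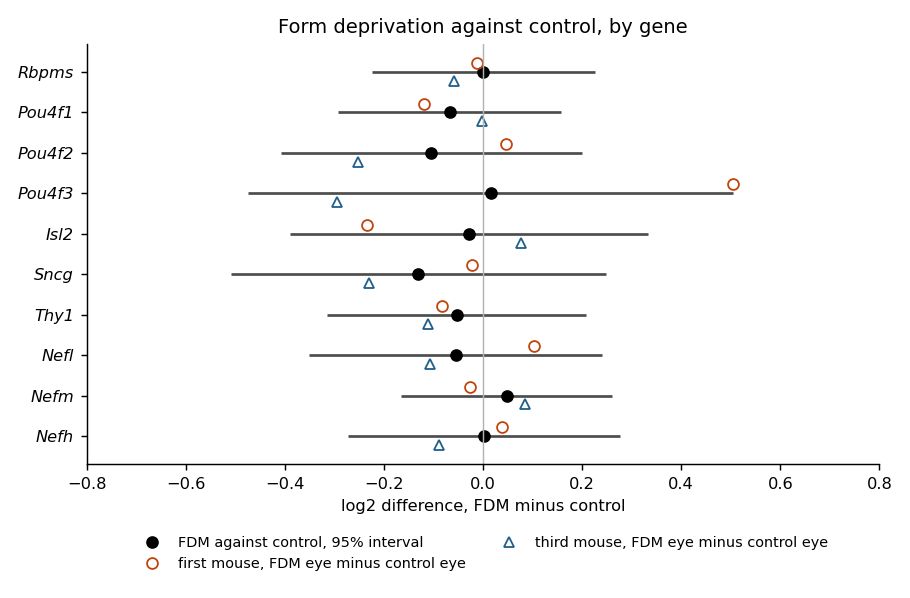
Log2 difference between FDM and control (x axis) for each ganglion cell identity gene (y axis). Filled points are fitted values from edgeR with their 95% intervals. Open circles and triangles are the FDM eye minus the control eye of the first and the third mouse, paired by column number. Every interval contains 0, and the fitted values lie between -0.13 and 0.05.

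The comparison of the eyes of 1 mouse removes what differs between animals. In the first mouse the FDM eye stood between -0.23 (Isl2) and 0.50 (Pou4f3) log2 units from the control eye. The member median was -0.02, as was the median of all genes tested. In the third mouse the differences ran from -0.30 (Pou4f3) to 0.09 (Nefm), with a member median of -0.10 against -0.0011 over all genes. Pou4f3 thus had the largest difference in each mouse, in opposite directions. Rbpms, Pou4f1, Sncg and Thy1 were lower in the FDM eye of both mice, 4 of the 10 members, and none was higher in both. Of all genes tested, 30.3% were lower in both mice and 24.7% higher in both. These counts rest on the pairing by column numbers: with FDM 3 set against Control 2, as the titles number it, 0 members were lower in both pairs (19.9% of all genes) and 1, Nefh, was higher in both (13.9%). For Thy1 the 2 differences were close, -0.08 and -0.11, whereas for Sncg they were -0.02 and -0.23 and for Pou4f1 -0.12 and -0.0014.

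A fit that took the mouse for a block, again in edgeR, called 1261 genes (7.23%) at an unadjusted p under 0.05, and 0 of the 10 members were among them. Thy1 came nearest, at -0.10 with an unadjusted p of 0.0879 in edgeR, followed by Sncg at -0.13 with 0.113. This fit has 1 residual degree of freedom and takes Control 2 out of the comparison of eyes. When FDM 3 was instead blocked with Control 2, as the sample titles number it, 439 genes (2.52%) and 0 members passed, and the smallest edgeR p of a member was 0.304.

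The mice, too, could be compared, since both eyes of each of a pair of animals were sequenced. Both eyes of the third mouse were above both eyes of the first for 9 of the 10 genes, all except Pou4f3, and below them for 0. Over all genes tested the shares were 21.3% above and 23.5% below. In control eyes the third mouse exceeded the first by a member median of 0.27 log2 units, and in FDM eyes by 0.18, where the medians of all genes were 0.00093 and 0.00028. Sncg was 0.51 higher between the control eyes and 0.30 between the FDM eyes, and Nefl was 0.36 and 0.15 higher. Isl2 differed by 0.05 between the control eyes and 0.36 between the FDM eyes. Pou4f3, the exception, was 0.72 higher in the third mouse's control eye and -0.08 in its FDM eye. These are values of 2 mice, so they are given as a description with no test.

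In 8 of the 10 members Control 3 had the highest level of all 5 libraries, and the share of all genes with this arrangement was not counted. Control 3 is the library with the muscle genes, and FDM 3 is the one with the lens genes. The count of 9 stayed with 3 other scalings of the libraries and with the marker genes left out of the scaling, and it was 8 with the authors' normalized counts. With Control 2 in the place of Control 3, as the titles pair the eyes, the count was 5 of 10, at 22.5% of all genes. Other cell types were mixed. Of Müller glia genes 3 were above and 0 below in the third mouse, of vessel genes 1 and 3, and of optic nerve glia genes 1 and 4. Amacrine genes had 2 above and 2 below, bipolar genes 3 and 2, and horizontal genes 1 and 2. Rods, which make up most cells of the mouse retina, ran the other way from the members. Of 7 rod genes 0 were above and 4 below, beside 21.3% and 23.5% of all genes. The rod genes had medians of -0.09 in control eyes and -0.11 in FDM eyes. Their summed level was 65192 CPM in Control 1 and 61674 CPM in FDM 1, against 61705 CPM in Control 3 and 56899 CPM in FDM 3, and 52005 CPM in Control 2. The summed level of the 10 members was 1038 and 1054 CPM in the first mouse, 1266 and 1193 CPM in the third, and 1159 CPM in Control 2. Whether the share of rod, lens or muscle RNA plays a part in the members' gap between mice was not tested.

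**Figure D3:**
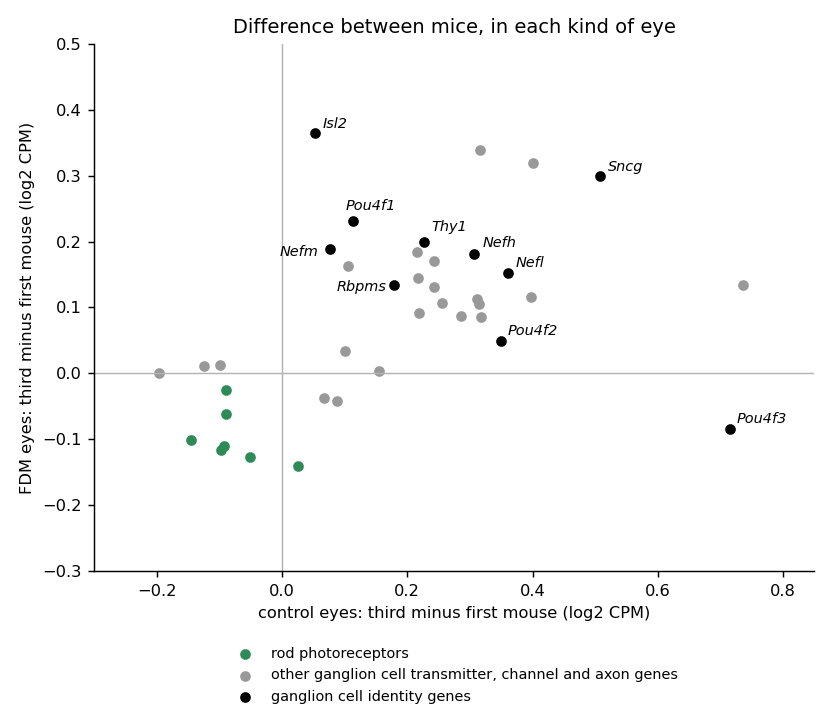
Level in the third mouse minus that in the first, in log2 CPM, for the control eyes (x axis) and the FDM eyes (y axis). Eyes were paired by column number. Each point is a gene: ganglion cell identity genes in black with names, other ganglion cell transmitter, channel and axon genes in grey, and rod genes in green. Of the identity genes, all except Pou4f3 lie right of 0 and above 0, and 6 of the 7 rod genes lie left of 0 and below 0.

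Other ganglion cell genes were read in lists next to the members. Of 22 genes for transmission, channels and the axon, 0 passed edgeR's test in either direction. Their median difference was -0.07 against -0.01 over all genes tested, with 20 below 0 and 2 above. The share of all genes below 0 was not counted, and genes of 1 cell type can vary together between libraries. Uchl1, an abundant neuronal ubiquitin hydrolase, was at -0.09, Stmn3, a regulator of microtubules, at -0.12, and Jam2, a junction protein of a direction-selective ganglion cell type, at -0.06. Their unadjusted p in edgeR was 0.462 for Uchl1 and 0.302 for Stmn3. In the blocked fit 1 of the 22 was higher (Robo2) and 5 were lower (Rbpms2, Uchl1, Pvalb, Cartpt and Opn4) in the FDM eyes at the unadjusted threshold in edgeR, beside 7.23% of all genes, and the smallest adjusted p was 0.214. With FDM 3 blocked with Control 2 all 6 of these calls were lost, with unadjusted p-values in edgeR from 0.291 to 0.992. Cartpt, a neuropeptide of direction-selective ganglion cells, had that value, and it was at 55.3 and 69.9 CPM in FDM 1 and FDM 3 and at 68.4, 70.9 and 85.3 CPM in the controls. Its difference was -0.30 in the blocked fit (edgeR's unadjusted p = 0.00124) and -0.26 without the block (edgeR's unadjusted p = 0.105), and it was -0.16 with the block by title numbers (edgeR's unadjusted p = 0.291). The FDM eye was the lower one in both mice for Cartpt, although the groups overlapped. Opn4, the melanopsin of intrinsically photosensitive ganglion cells, had a blocked value of -0.30 (edgeR's unadjusted p = 0.0452), against -0.19 without a block (0.247) and -0.10 with the block by title numbers (0.589). Robo2, an axon guidance receptor, had one of 0.16 (edgeR's unadjusted p = 0.0482), and its direction turned in both other fits, at -0.04 without a block (0.811) and -0.05 with the block by title numbers (0.772). Except for Uchl1, these genes were named after their values were seen, as was Prph in the filament list.

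With the eyes paired by column numbers, the same 22 genes shared the gap between the mice. Of them 16 were higher in both eyes of the third mouse and 0 lower, beside 21.3% and 23.5% of all genes. Their medians were 0.23 in control and 0.11 in FDM eyes. The 15 ganglion cell transcription factors did not have it, with 3 above and 4 below and medians of -0.05 and 0.0072. With Control 2 in the place of Control 3, 14 of the 22 genes and 5 of the 15 factors were above, at 22.5% of all genes. Between FDM and control 0 of these 15 factors passed, at a median of 0.03, and the most abundant of them, Isl1, Ebf3 and Ebf1, were at 0.07, 0.05 and -0.02. Isl1 is also expressed by amacrine and bipolar cells, and the Ebf factors by several inner retinal types.

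Among the intermediate filament partners of the neurofilaments 0 of 5 passed in edgeR without a block. Ina, the internexin that joins neurofilaments, was at 0.03, the glial filament genes Vim and Gfap were at 0.02 and 0.08, and Prph, the peripherin, was called lower in the blocked fit, at -0.41 (unadjusted p = 0.0221 in edgeR), a call lost with the block by title numbers, at -0.21 (0.286). Of 9 tested genes that rise in injured ganglion cells, 1 was higher in FDM and 0 were lower at the unadjusted threshold in edgeR, beside 1.61% of all genes, at a median of -0.10. That gene was Bbc3, which encodes a pro-apoptotic BH3-only protein: it was at 5.07 and 5.32 CPM in FDM eyes and at 4.26, 3.95 and 4.36 CPM in control eyes. The groups did not overlap, as in 3.97% of all genes with both FDM retinas on top. The log2 difference was 0.31 (SE 0.126), and the unadjusted p was 0.0411 in edgeR, with an adjusted p of 1.0. In the blocked fit it was 0.27, with an unadjusted p of 0.0788 in edgeR. The call was also lost with the block by title numbers (0.0834 in edgeR) and in DESeq2 (unadjusted p = 0.0802). Ddit3, a stress-induced factor, had groups that did not overlap in the other direction, at 42.3 and 40.2 CPM in FDM eyes and 45.9, 45.7 and 43.7 CPM in control eyes, as in 6.67% of all genes. The injury factors Jun, Atf3 and Ddit3 did not pass, at 0.12, -0.23 and -0.13, and Sprr1a, a gene of regenerating axons, had 0 counts in 4 libraries and 2 counts in Control 3.

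**Figure D4:**
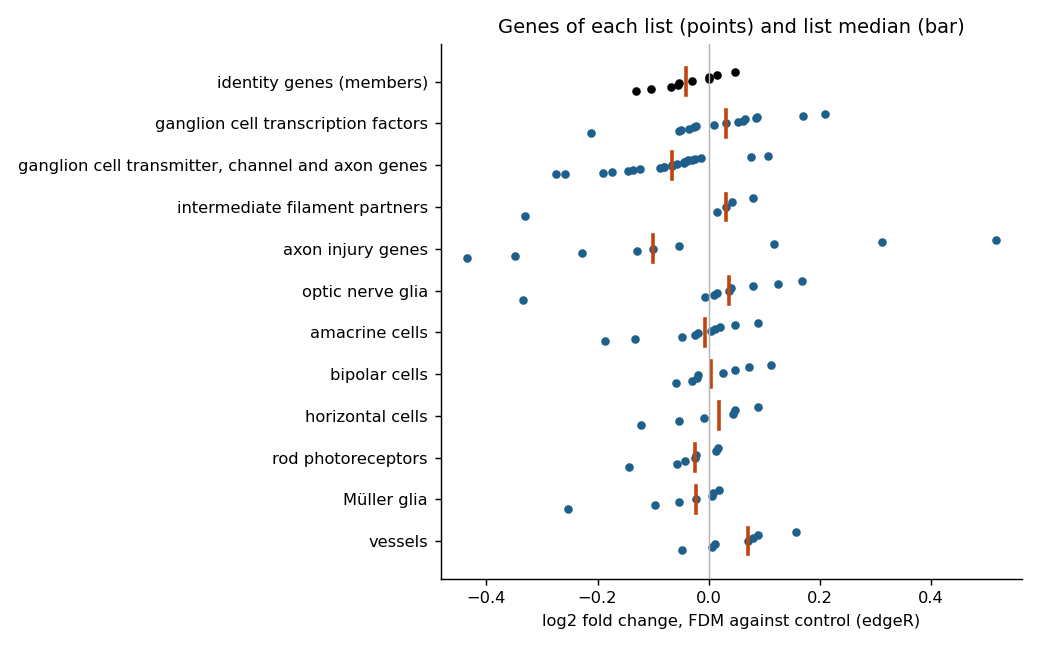
Log2 difference between FDM and control from edgeR (x axis) for the ganglion cell identity genes and for lists of other ganglion cell, axon injury and retinal cell genes (y axis). Points are genes and vertical bars are list medians, and the members lie between -0.13 and 0.05. Among the lists drawn only Bbc3 of the axon injury genes passed an unadjusted p of 0.05 in this fit without a block.

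The neighbours of ganglion cells were read in the same fit. Markers of amacrine cells (10 genes), bipolar cells (8), horizontal cells (6), rods (7), Müller glia (7) and vessels (7) gave 0 calls without a block. In that edgeR fit 1.61% of all genes passed, and the medians of these lists lay between -0.02 and 0.07. With the block by column numbers 1 horizontal gene was higher and 2 rod genes were lower, beside 7.23% of all genes called. Of Müller glia genes 1 was higher and 1 lower, and amacrine, bipolar and vessel genes had 0 blocked calls. Optic nerve glia, whose myelin genes enter a retina sample with the nerve head, gave 0 calls of 9 at a median of 0.04, and their summed level was 105 to 106 CPM in FDM eyes and 96.6 to 112 CPM in control eyes. Calls without a block came from lens and pigment epithelium, tissue outside the neural retina, beside 1.61% of all genes. Of lens genes 13 of 13 tested were higher, at a median of 5.03. Their sum was 29.8 CPM in FDM 1 beside the 2523 CPM of FDM 3. Of pigment epithelium genes 5 of 11 were lower, at a median of -1.84. Their sum in Control 1, 455 CPM, was near the 450 and 436 CPM of FDM 1 and FDM 3. Only Control 2 (596 CPM) and Control 3 (670 CPM) stood higher. Muscle genes had 0 calls of 4 tested without a block, at a median of -1.0, and blood genes 0 of 5, at -0.23. With the block by column numbers 13 lens genes were higher, and 7 pigment epithelium genes, 4 muscle genes and 1 blood gene were lower. Optic nerve glia genes had 0 blocked calls.

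The genes whose pattern over the 5 libraries was most like that of the members were searched among 10593 other genes with a mean of at least 10 CPM. The members' median deviation from their own mean was -0.10 and -0.09 log2 units in the FDM and control eye of the first mouse, 0.07 and 0.17 in those of the third, and -0.01 in Control 2. The nearest by Euclidean distance over the 5 libraries were Fxyd6 (0.0465), Lurap1l (0.0494), Stmn1 (0.0525), Tor1a (0.0561) and Fam174b (0.0567). In each of them Control 3 was the highest library and the first mouse's eyes were the lowest pair, which follows from their choice by likeness to the members.

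For position, the members lie on 5 mouse chromosomes in GRCm38. Nefl (chromosome 14, 68083863 to 68089095, plus strand) and Nefm (chromosome 14, 68082590 to 68124846, minus strand) overlap as described, and Sncg (chromosome 14, 34370274 to 34374789) and Pou4f1 (chromosome 14, 104461676 to 104467999) are on the minus strand of the same chromosome. Rbpms (33782643 to 33929863) and Pou4f2 (78433010 to 78436645) are on the minus strand of chromosome 8, and Thy1 (44043384 to 44048579) and Isl2 (55538672 to 55546180) on the plus strand of chromosome 9. Nefh is on chromosome 11 (4938754 to 4948064, minus strand) and Pou4f3 on chromosome 18 (42394539 to 42397249, plus strand). Only Nefl and Nefm of the 10 share exon bases with another annotated gene.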

How the data were processed

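The labels and the study's methods describe polyadenylated RNA of mouse retina, prepared with a kit that keeps no strand and sequenced as paired reads. Per the submitters' processing notes, Trimmomatic 0.39, Salmon 1.10.1 and R 4.3.1 were used with GRCm38. The authors deposited estimated counts per gene as whole numbers, which were used unrounded, and a normalized signal from DESeq2 with a factor for each gene and library. An estimated count divides reads between similar transcripts, which bears on Pou4f1 and Pou4f2.

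From the deposited estimated counts, genes with over 10 counts in at least 2 libraries (17432 of 33636 rows, of which 1 repeated an identifier) were tested in edgeR 4.0.16 (R 4.3.3) with TMM scaling and the quasi-likelihood test, 2 FDM against 3 control libraries, with no covariate. The threshold was the study's unadjusted p of 0.05, and adjusted values are Benjamini-Hochberg over all genes tested. CPM are counts divided by the scaled total, times 1000000. Intervals are 95% for the fitted log2 difference between the groups, and they are not a range of single retinas. Their standard error is the size of the difference divided by the square root of the test's F value. They use at most 7.26 degrees of freedom, in part borrowed across genes, and take the eyes of 1 mouse as independent. Values per kilobase used the exons of GENCODE M21, which held 33586 of the identifiers. The edgeR fit without a block was tested on simulated data with independent libraries, and the other fits were not.

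Groups came from the sample labels. The eyes of 1 mouse were paired by the numbers of the table's columns, which the title of the second FDM library does not bear out. Across genes, deviations from the group means correlated at 0.255 for FDM 1 with Control 1. They correlated at 0.107 for FDM 3 with Control 3 and at 0.165 for FDM 3 with Control 2. For FDM 3 the correlation was thus lower in the pairing used. With 2 FDM libraries the deviation of FDM 3 is that of FDM 1 with its sign turned, and the control deviations sum to 0. The correlations are therefore tied to each other and do not test each pair separately, and which pairing is right was not settled. As alternatives, the mouse was a block, single libraries were left out, other scalings and filters were used, and the test was DESeq2 1.42.0 or, for log2 of the authors' normalized signal plus 1 or 0.1, limma 3.58.1.

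The members and lists were chosen with earlier results of these data known. All 10 members were named, and from each list the genes with an unadjusted p under 0.05 (at most 3, those with the smallest p), with the 3 most abundant genes of the ganglion cell lists and of the filament and injury lists, and the 5 genes nearest to the members' pattern. No set test was run.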

Additional observations from a re-analysis of the deposited data

How the results depend on the processing

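No member passed an unadjusted p of 0.05 in any of the 16 alternatives, of which the smallest member p was 0.0879, and the members' median stayed within 1 SD of its value, between -0.13 (without FDM 3) and 0.04 (without FDM 1). This SD, 0.127, is the spread between libraries of a group in the members' median deviation. It is larger than the size of the main median (-0.04), so a change of sign can stay within it. The members' median was above 0 without FDM 1, without Control 3 (0.03) and with a replicate block by title numbers (0.02). Of 160 member values under the alternatives 131 kept their direction and 29 turned. Sncg, with the largest main difference (-0.13), was among those that turned. It was 0.010 without FDM 1, 0.013 without Control 3 and 0.0049 with the replicate block by title numbers. Under limma Isl2 was 0.0082 and Rbpms -0.00096 with either pseudocount. With every gene of at least 1 count Nefh was -0.0020 and Rbpms -0.0025. With the replicate block by column numbers, which takes FDM 3 and Control 3 as 1 mouse, Nefh was -0.026 and Rbpms -0.036. By title numbers Nefl was 0.019, Sncg 0.0049 and Thy1 0.027. With each library left out in turn, the values ranged from -0.23 to 0.14 for Isl2, -0.092 to 0.10 for Nefh, -0.16 to 0.019 for Nefl, -0.050 to 0.14 for Nefm, -0.19 to 0.043 for Pou4f1, -0.18 (without Control 1) to -0.0014 (without Control 3) for Pou4f2, -0.16 to 0.18 for Pou4f3, -0.068 to 0.073 for Rbpms, -0.29 to 0.013 for Sncg and -0.16 to 0.043 for Thy1. The cause was not tested.

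The 281 genes at an unadjusted p under 0.05 became 172 in DESeq2, 498 with every gene of at least 1 count, 182 with a filter of 1 CPM, 500 and 493 in limma with pseudocounts of 1 and 0.1, and 1261 and 439 with the block by column and title numbers. Adjusted calls, 0 in edgeR, were 3 in DESeq2 and 54 and 128 with the blocks. With a library left out, the unadjusted count ran from 146 (without Control 3) to 946 (without Control 1), with 170 without FDM 1 and 535 without Control 2, and the adjusted count from 0 to 16, with 16 without FDM 1 and 12 without Control 1. Where 1 FDM library remained, it was assumed to vary like the controls. The count of 9 members higher in the third mouse was 5 with the title numbers and 8 with the authors' normalized counts, and that of 4 members lower in the FDM eye of both mice was 0 with the title numbers, all chosen after the data were seen. The blocks changed no member's call. With 2 FDM retinas, the intervals allow differences of the size they span, and the smallest difference that could be detected is not given.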
